A study of Mus musculus with 5 samples.

Results

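The 10 genes described here encode the nuclear end of the Hippo-YAP pathway and a set of its target genes. They were chosen by name from the 55397 genes of the table, with earlier results of these data known. They comprise the coactivator genes Yap1 and Wwtr1 (which encodes TAZ), the DNA-binding factor genes Tead1, Tead2 and Tead4, and the targets Ccn1, Ccn2, Amotl2, Ankrd1 and Ajuba. All 10 had a mean of at least 10 normalised counts and were tested together with the other genes that passed this filter (17105 in all).

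Bulk RNA-seq was performed on liver tumours that had been started in female C57BL/6N mice of 8 weeks by hydrodynamic tail vein injection, a rapid infusion under whose pressure hepatocytes take up plasmid DNA. All tumours carried pT3-EF1a-AKT and pT3-EF1a-NICD-IRES-rtTA, so that both Akt and the intracellular domain of Notch1 (NICD) were driven by the EF1a promoter, which yields liver tumours with features of cholangiocarcinoma (CCA), a bile duct cancer. The 3 Prox1 overexpression (Prox1 OE) libraries also carried pT3-Tre-FLAG-mmProx1-IRES-GFP and the 2 Control libraries the empty pT3-Tre-IRES-GFP, both induced with doxycycline food (6.25%) from day 21. Prox1 OE ran from week 3 to week 4, with collection after this week or at a humane endpoint, and the labels do not say which applied to which tumour. The labels number the libraries but do not tie them to animals, so p-values measure the spread between these libraries, which may be technical in part. The rtTA that switches on Prox1 is encoded on the NICD plasmid. The comparison asks what differed in established Akt/NICD tumours once Prox1, a transcription factor of hepatocytes, had been switched on.

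In the Hippo pathway, a kinase cascade phosphorylates the coactivators YAP and TAZ and keeps them out of the nucleus. When the cascade is less active, YAP and TAZ enter the nucleus and bind TEAD proteins, which recognise DNA but activate transcription poorly alone. In the liver, YAP activity is known to be high in bile duct cells and low in hepatocytes, and raised YAP activity is known to give hepatocytes features of duct cells. The pathway regulates YAP and TAZ largely through phosphorylation and location of the proteins, which RNA-seq does not measure.

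Promoter sequences are shown for the members with the letters GGAATG or CATTCC, the core that TEAD proteins recognise, upstream of the start. RefSeq windows of 300 bases (GRCm38.p6, 250 before to 50 after the start) were matched for 7 of the 10 genes, namely Yap1, Wwtr1, Tead2, Ccn1, Amotl2, Ankrd1 and Ajuba. The TEAD letters were searched on both strands and lay in 6 of these 7 genes, all but Tead2. Of all 32851 windows, 14.7% held them. Capitals mark the TEAD letters, each sequence is written 5′ to 3′ on the strand of its gene, and a match is a description and not a binding site. The whole upstream stretch is given for Ccn1 and Ajuba, whose upstream bases overlapped no annotated exon.
Ccn1, minus strand, chr3:145649986-145650235: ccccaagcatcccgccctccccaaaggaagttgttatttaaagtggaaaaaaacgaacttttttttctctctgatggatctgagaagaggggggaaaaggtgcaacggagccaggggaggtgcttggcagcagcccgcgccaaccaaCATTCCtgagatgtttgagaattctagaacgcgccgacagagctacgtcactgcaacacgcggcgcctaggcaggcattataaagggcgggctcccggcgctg
Ajuba, minus strand, chr14:54577662-54577911: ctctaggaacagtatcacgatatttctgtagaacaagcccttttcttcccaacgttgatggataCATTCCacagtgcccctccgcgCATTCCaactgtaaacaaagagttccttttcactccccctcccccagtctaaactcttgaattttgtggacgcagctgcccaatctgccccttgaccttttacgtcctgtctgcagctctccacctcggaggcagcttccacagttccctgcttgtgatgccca
Ccn1 had 1 match, 103 bases before the start, and Ajuba had 2, at 186 and 164 bases before it. For the other members, a short stretch around each match shows its surroundings.
Ankrd1, minus strand, chr19:36120039-36120064: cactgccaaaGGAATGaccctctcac
Ankrd1, minus strand, chr19:36119952-36119977: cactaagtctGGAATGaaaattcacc
Amotl2, plus strand, chr9:102717729-102717754: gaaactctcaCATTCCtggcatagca
Yap1, minus strand, chr9:8004722-8004747: ggagtctgcaGGAATGtagcgacgcg
Wwtr1, minus strand, chr3:57576031-57576056: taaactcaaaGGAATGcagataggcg
These matches lay 210 and 123 bases before the start in Ankrd1, 65 in Amotl2, 141 in Yap1 and 136 in Wwtr1. The starts are those of RefSeq. For Ankrd1 and Amotl2 the RefSeq start lies inside the gene bounds given below, as do the matches. Wwtr1 had a further annotated start, from which the same match lay 170 bases upstream. Both coactivator genes thus carried the letters in this window, as did all 4 targets with a matched window.

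With the same search, the letters TGGGAA (reverse TTCCCA), read by RBPJ, the DNA-binding partner of NICD, were found in 3 of the 7 genes (Tead2, Ankrd1 and Ajuba). The share over all windows, counted per window and not per gene, was 25.6%. The TEAD and RBPJ letters can share bases where they adjoin, although no pair did so in these windows. The AP-1 letters TGANTCA, the core for Fos and Jun proteins, lay in 0 of the 7 genes and in 7.81% of all windows. No match says only that these letters were not in this window.

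Of the 10 genes, 8 fell in Prox1 OE (limma on log2(normalised count + 1), adjusted p under 0.05 over all genes), and 0 rose. Among all genes tested, 16.2% fell and 17.1% rose (33.3% in either direction). Since the 10 genes were chosen with earlier results of these data known, their counts are descriptions. All 3 TEAD genes and all 5 targets fell, whereas both coactivators missed the threshold. The median log2 fold change was -0.29 over the 2 coactivators, -0.98 over the 3 TEAD genes and -1.25 over the 5 targets, against -0.02 over all genes tested. The levels of every one of the 10 genes in the Prox1 OE libraries lay below both Control levels, a separation that 32.4% of all genes showed. A normalised count is the number of reads of a gene divided by the size factor of its library, and in bulk tumours fewer cells of a type and less RNA per cell cannot be told apart.

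The libraries held 48740863 to 56629477 recovered reads, and a single read was worth 0.822 to 1.18 normalised counts. Prox1, counted from the transgene and the endogenous gene together, had 4153 and 4664 normalised counts in Control and 48090, 11113 and 8231 in Prox1 OE. It was higher in all 3 Prox1 OE libraries, with a log2 fold change of 1.90 that missed the threshold (adjusted p = 0.061), and Prox1 OE 1 stood far above the other two. Akt1 and Notch1, whose reads may include those of the injected drivers, fell, with log2 fold changes of -1.05 and -1.19 (adjusted p = 0.0057 and 0.0046), so the fold changes of the 10 genes are also given relative to these genes.

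**Figure D1:**
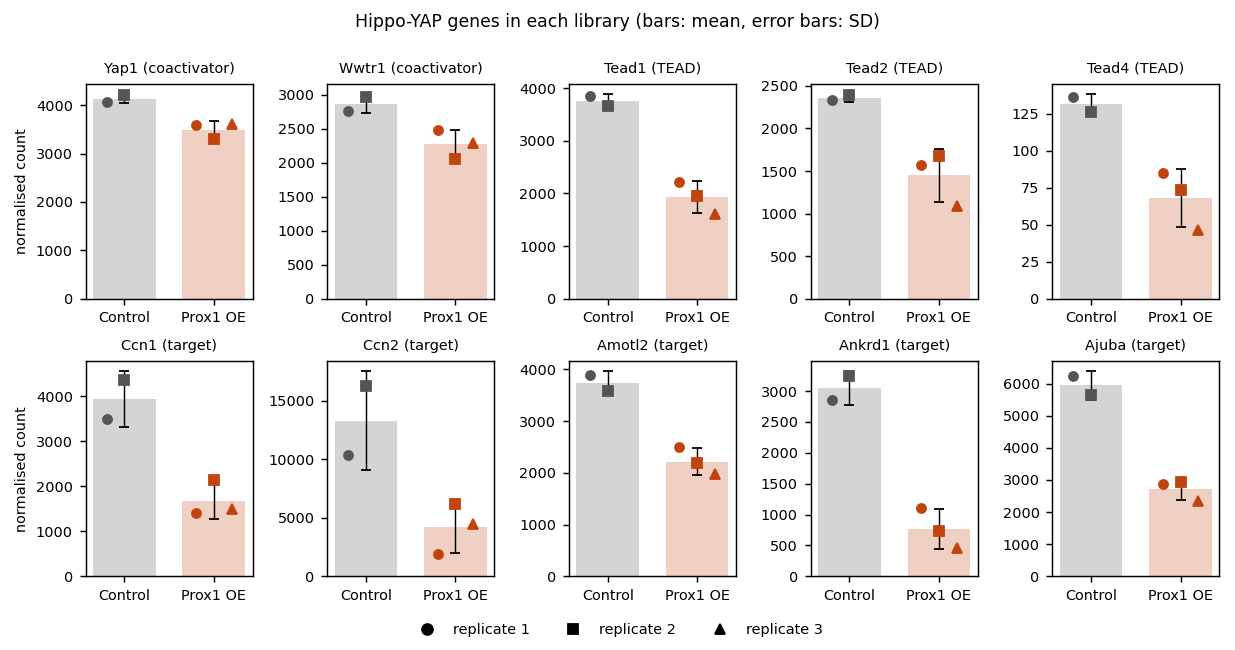
Normalised counts (y axis, from 0) of the 10 Hippo-YAP genes in 2 Control and 3 Prox1 OE libraries (x axis), with bars for the mean, error bars for the SD and a marker shape for each replicate number. Every Prox1 OE point lay below both Control points of its gene, with the widest separation for Ankrd1 (highest Prox1 OE library at 38.4% of the lowest Control) and the narrowest for Wwtr1 (89.6%).

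Yap1 (ENSMUSG00000053110, chr9:7931999-8004596, mm10) encodes the coactivator YAP. It had 4070 and 4205 normalised counts in Control and 3580, 3294 and 3607 in Prox1 OE, or 4138 ± 95.6 (SD, n = 2) and 3494 ± 173 (SD, n = 3). The groups did not overlap, but the highest Prox1 OE library still reached 88.6% of the lowest Control. The log2 fold change was -0.24 (SE 0.11, 95% interval -0.50 to 0.01, adjusted p = 0.116 by limma). A decline of as much as 0.50 on the log2 scale thus lay within the interval.

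Wwtr1 (ENSMUSG00000027803, chr3:57455649-57575910) encodes TAZ, the YAP-related coactivator. Its levels were 2770 and 2974 normalised counts in Control and 2481, 2052 and 2288 in Prox1 OE. Again the groups did not overlap, and Prox1 OE 2 was the lowest for both coactivators. Wwtr1 had a log2 fold change of -0.34 (SE 0.12, unadjusted 95% interval -0.63 to -0.05, adjusted p = 0.0701 by limma), and it passed the threshold when Prox1 OE 1 was left out (adjusted p = 0.0254). Per kb of exon, the level of Wwtr1 (601 in Control, 476 in Prox1 OE) was above that of Yap1 (447 and 377). The log2 ratio of Wwtr1 to Yap1 within a library, which no scaling between libraries can change, was 0.43 ± 0.04 (SD) in Control and 0.33 ± 0.08 in Prox1 OE, with overlapping groups (difference -0.10, exact permutation test, two-sided, p = 0.3, adjusted p = 0.375 over 5 ratios).

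Tead1 (ENSMUSG00000055320, chr7:112679318-112906807), which encodes a TEAD factor, fell about as far as Tead4 and further than Tead2 by point estimate. It had 3852 and 3658 normalised counts in Control and 2219, 1947 and 1611 in Prox1 OE. No Prox1 OE library reached more than 60.6% of the lowest Control. The fold change amounted to a 1.95-fold decrease of the mean (log2 fold change -0.98, SE 0.15, adjusted p = 0.0043).

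Tead2 (ENSMUSG00000030796, chr7:45215753-45233644) is the TEAD gene with the highest level per kb of exon in these tumours (493 in Control). Its normalised counts were 2329 and 2393 in Control and 1573, 1679 and 1091 in Prox1 OE. Prox1 OE 3 was the lowest, and the groups did not overlap (log2 fold change -0.73, SE 0.19, adjusted p = 0.0246). Exons of Tead2 overlap those of Cd37 on the opposite strand, which had a mean of 204 normalised counts, and the strand setting used for counting is not given in the sources used here.

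Tead4 (ENSMUSG00000030353, chr6:128224288-128300823) was the least abundant of the 10 genes, with 36.5 normalised counts per kb in Control. Its counts were 136 and 126 in Control and 84.9, 73.2 and 46.3 in Prox1 OE. All 3 Prox1 OE libraries were lower than both Controls (log2 fold change -0.98, SE 0.31, 95% interval -1.71 to -0.25, adjusted p = 0.0465). This value lay just inside the threshold and passed it in only some of the alternatives given at the end.

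Tead3, the remaining member of the TEAD family and not among the 10 genes, did not pass the test (648 ± 58.0 normalised counts in Control, 611 ± 14.6 in Prox1 OE, log2 fold change -0.08, adjusted p = 0.667). The summed level of the 4 Tead genes per kb of exon was 899 and 907 normalised counts in Control and 608, 606 and 448 in Prox1 OE. As a share of this sum, Tead3 was 10.7% ± 0.885 (SD, n = 2) in Control and 16.7% ± 2.65 (n = 3) in Prox1 OE. Tead1 was 30.7% ± 1.32 in Control and 25.7% ± 1.74 in Prox1 OE. The groups did not overlap for either share, which gave the smallest p that 10 splits of 5 libraries allow (exact permutation test, two-sided, p = 0.1, adjusted p = 0.25 over 5 ratios). Tead2 made up most of the sum in both groups, with 54.6% and 54.2% (p = 0.8), and Tead4 4.04% and 3.37% (p = 0.3), by the same exact permutation test.

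**Figure D2:**
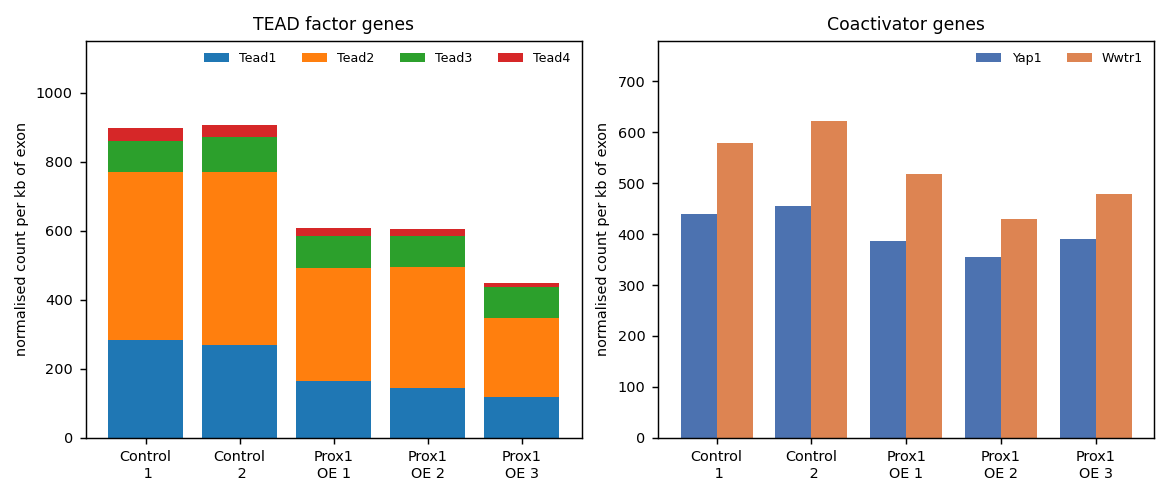
Normalised counts per kb of exon (y axes) of the 4 Tead genes, stacked (left), and of Yap1 and Wwtr1, side by side (right), in each library (x axes). The summed Tead level was 899 and 907 in Control and 448 to 608 in Prox1 OE, while the Tead3 segment kept a like height and Wwtr1 stood above Yap1 in all 5 libraries.

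Ankrd1 (ENSMUSG00000024803, chr19:36111961-36120099), which encodes a nuclear ankyrin-repeat protein and is a widely used readout of YAP, fell the most in the fit of all libraries. Its counts were 2860 and 3239 in Control and 1099, 737 and 454 in Prox1 OE. The 3 Prox1 OE libraries lay far below both Controls, and among them Prox1 OE 1 was the highest. The means were 3049 ± 268 (SD, n = 2) and 763 ± 324 (SD, n = 3), a 3.99-fold decrease (log2 fold change -2.09, SE 0.33, adjusted p = 0.0044). Only 1.42% of all genes tested had a lower log2 fold change. Without Prox1 OE 2 or without Prox1 OE 3, Ccn2 fell further than Ankrd1 (-2.17 against -2.11 and -1.93 against -1.76).

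Ccn2 (ENSMUSG00000019997, chr10:24595442-24598683) encodes connective tissue growth factor, a secreted matricellular protein. It had the highest level per kb of the 10 genes, above 94.1% of all genes tested, and the widest spread between libraries. Its counts were 10327 and 16278 in Control and 1870, 6198 and 4441 in Prox1 OE. Both Controls lay above all 3 Prox1 OE libraries, with Prox1 OE 1 the lowest (log2 fold change -1.80, SE 0.46, 95% interval -2.88 to -0.72, adjusted p = 0.0232). Its exons overlap those of Gm15270 on the opposite strand, which had a mean of 33.7 normalised counts.

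Ccn1 (ENSMUSG00000028195, chr3:145646976-145649981) encodes CYR61, a secreted relative of the Ccn2 product. Its counts were 3496 and 4374 in Control and 1410, 2131 and 1490 in Prox1 OE. As for Ccn2, the lowest library was Prox1 OE 1 and the highest of the Prox1 OE libraries was Prox1 OE 2 (log2 fold change -1.25, SE 0.20, adjusted p = 0.0048).

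Ajuba (ENSMUSG00000022178, chr14:54567472-54577558) encodes a LIM-domain protein of cell junctions that binds LATS kinases and restrains them. It had 6250 and 5632 normalised counts in Control and 2866, 2943 and 2332 in Prox1 OE. The Prox1 OE libraries differed little among themselves and none exceeded 52.3% of the lowest Control (log2 fold change -1.14, SE 0.14, adjusted p = 0.0026, the smallest of the 10 genes).

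Amotl2 (ENSMUSG00000032531, chr9:102716672-102733418) encodes a motin, a junctional protein that binds YAP and is itself a YAP target. Its counts were 3893 and 3574 in Control and 2495, 2183 and 1973 in Prox1 OE. The groups did not overlap, and the log2 fold change was the smallest in size of the 5 targets (-0.76, SE 0.13, adjusted p = 0.0064).

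The 3 Prox1 OE libraries did not order the genes alike. Prox1 OE 1, with the most Prox1 reads, had the lowest Ccn1 and Ccn2 levels of the 3 but the highest Wwtr1, Tead1, Tead4, Amotl2 and Ankrd1 levels. Averaged on the log2 scale relative to the Control mean, the 5 targets stood at -1.47, -1.15 and -1.59 in Prox1 OE 1, 2 and 3. The TEAD genes stood at -0.66, -0.76 and -1.27, and the coactivators at -0.21, -0.41 and -0.26. In each library the targets were the furthest below Control and the coactivators the nearest to it.

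Whether the targets and TEAD genes moved apart from the coactivators was asked by expressing each gene relative to the mean log2 value of Yap1 and Wwtr1 in the same library, a scale chosen after seeing the data. On this scale the median of all genes was shifted up to 0.28, and 6.82% of genes were lower and 29.4% higher at an adjusted p under 0.05 (limma). All 5 targets stayed lower, with log2 fold changes of -1.79 for Ankrd1 (adjusted p = 0.00351), -1.51 for Ccn2 (0.0392), -0.95 for Ccn1 (0.0145), -0.84 for Ajuba (0.0061) and -0.46 for Amotl2 (0.0381). Tead1 also stayed lower (-0.68, adjusted p = 0.0134). Tead2 and Tead4 no longer passed (-0.44 and -0.69, adjusted p = 0.143 and 0.135).

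Relative to the mean log2 value of Akt1 and Notch1 in the same library, the median of all genes was shifted up to 1.11, and 1.36% of genes were lower and 74.6% higher. Ankrd1 was the only one of the 10 genes still lower on this scale (log2 fold change -0.96, adjusted p = 0.005). Yap1 and Wwtr1 were higher (0.88 and 0.78, adjusted p = 0.0066 and 0.0101). Point estimates were below 0 for Ccn1 (-0.12), Ccn2 (-0.68) and Ajuba (-0.01) and above 0 for Tead1, Tead2, Tead4 and Amotl2 (0.14 to 0.39), and none of these 7 passed.

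**Figure D3:**
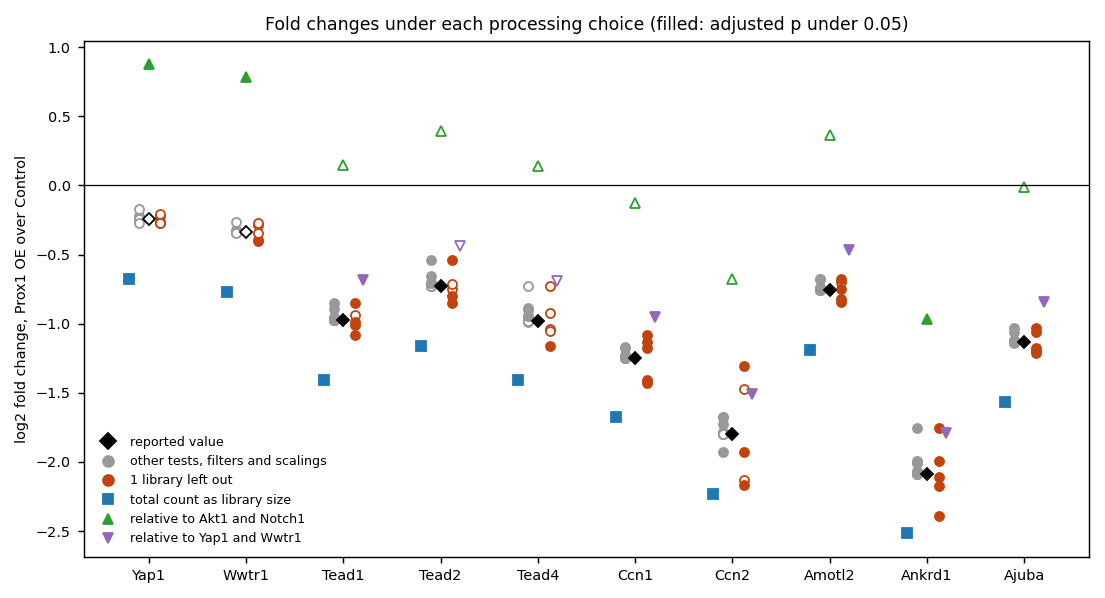
Log2 fold changes of Prox1 OE over Control (y axis) for the 10 Hippo-YAP genes (x axis) as reported (black) and under each other scaling, test, filter or left-out library, with filled markers for an adjusted p under 0.05. Values relative to Akt1 and Notch1 (green) ran from -0.96 for Ankrd1 to 0.88 for Yap1, while all other values plotted lay below 0 (Yap1 and Wwtr1 are not plotted on the scale relative to them).

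Of the wider pathway, 4 further lists held 48 genes in all, 47 of them tested, of which 28 fell and 1 rose (median log2 fold change -0.51). Background shares of all genes were 16.2% lower and 17.1% higher, as above. These lists were chosen with earlier results of the data known, and their counts are descriptions.

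The core kinase cassette transmits the inhibitory signal to YAP and TAZ, and 7 of its 11 genes fell, with 0 higher (median -0.46). Map4k4, a kinase that acts on LATS, had 8471 ± 71.8 (SD, n = 2) normalised counts in Control and 4580 ± 596 (n = 3) in Prox1 OE (log2 fold change -0.90, adjusted p = 0.0040). Lats1 and Lats2, the kinases that phosphorylate YAP and TAZ, fell, with log2 fold changes of -0.68 and -0.51 (adjusted p = 0.0105 and 0.0243). Sav1, the scaffold of the upstream MST kinases, fell by 0.65 (adjusted p = 0.0096). The number of core kinase genes called lower was 0 without Control 1, 1 without Control 2, 10 without Prox1 OE 1, 3 without Prox1 OE 2 and 4 without Prox1 OE 3, in fits where 2.79%, 4.88%, 21.9%, 10.2% and 11.3% of all genes were called lower. In the fit of all libraries, the genes that fell thus included inhibitors of YAP and TAZ as well as their partners and targets.

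Among 18 upstream and junctional regulators, 12 fell and 0 rose (median -0.53). Ptpn14, a phosphatase-family protein that retains YAP in the cytoplasm, had 3020 ± 20.6 normalised counts in Control and 1086 ± 306 in Prox1 OE (log2 fold change -1.51, adjusted p = 0.0037). Amotl1, a motin like Amotl2, fell by 1.10 on the log2 scale (adjusted p = 0.0027). The giant cadherin genes Fat1 and Fat4 fell, with log2 fold changes of -0.87 and -0.77 (adjusted p = 0.0141 and 0.0187). The number called lower was 2 without Control 1, 2 without Control 2, 13 without Prox1 OE 1, 5 without Prox1 OE 2 and 7 without Prox1 OE 3, against the same shares of all genes as for the core kinases. Ptpn14 and Amotl1 passed in all 5 of these fits, and Fat1 and Fat4 missed the threshold without Control 1, Control 2 or Prox1 OE 2. Ptpn14, like Lats2, also stands in the list of further targets.

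Of the 3 other genes that act at TEAD proteins, 2 fell. Vgll3 and Vgll4 encode cofactors that compete with YAP for TEAD proteins. Vgll3 fell by 1.51 on the log2 scale (388 to 135 normalised counts, adjusted p = 0.0039) and Vgll4 fell by 0.74 (2405 to 1443, adjusted p = 0.0085). Vgll3 passed with any 1 library left out, and Vgll4 missed without Control 1 (adjusted p = 0.0956) or Control 2 (0.0547). The third was Tead3.

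Further YAP/TAZ targets numbered 18, of which Foxf2 was too low to test. Among the other 17, 9 fell, 1 rose and 7 did not pass (median -0.68), against 5 of 5 lower among the targets in the 10 genes. Tgfb2, a TGF-β ligand gene, fell by 1.81 on the log2 scale (2910 to 834 normalised counts, adjusted p = 0.0024). F3, which encodes tissue factor, fell by 1.69 (2637 to 824, adjusted p = 0.0023), and Arhgef17 fell by 1.41 (2964 to 1137, adjusted p = 0.0038). Nt5e, which encodes the ectonucleotidase CD73, rose (1448 ± 22.9 to 3656 ± 332 normalised counts, log2 fold change 1.33, adjusted p = 0.0019). Without Control 1, 5 of these targets were called lower (2.79% of all genes). These 4 named genes passed with any 1 library left out. The targets therefore did not all move one way. TEAD letters lay in 4 of the 12 of these 18 genes with a promoter window, RBPJ letters in 1 and AP-1 letters in 1.

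**Figure D4:**
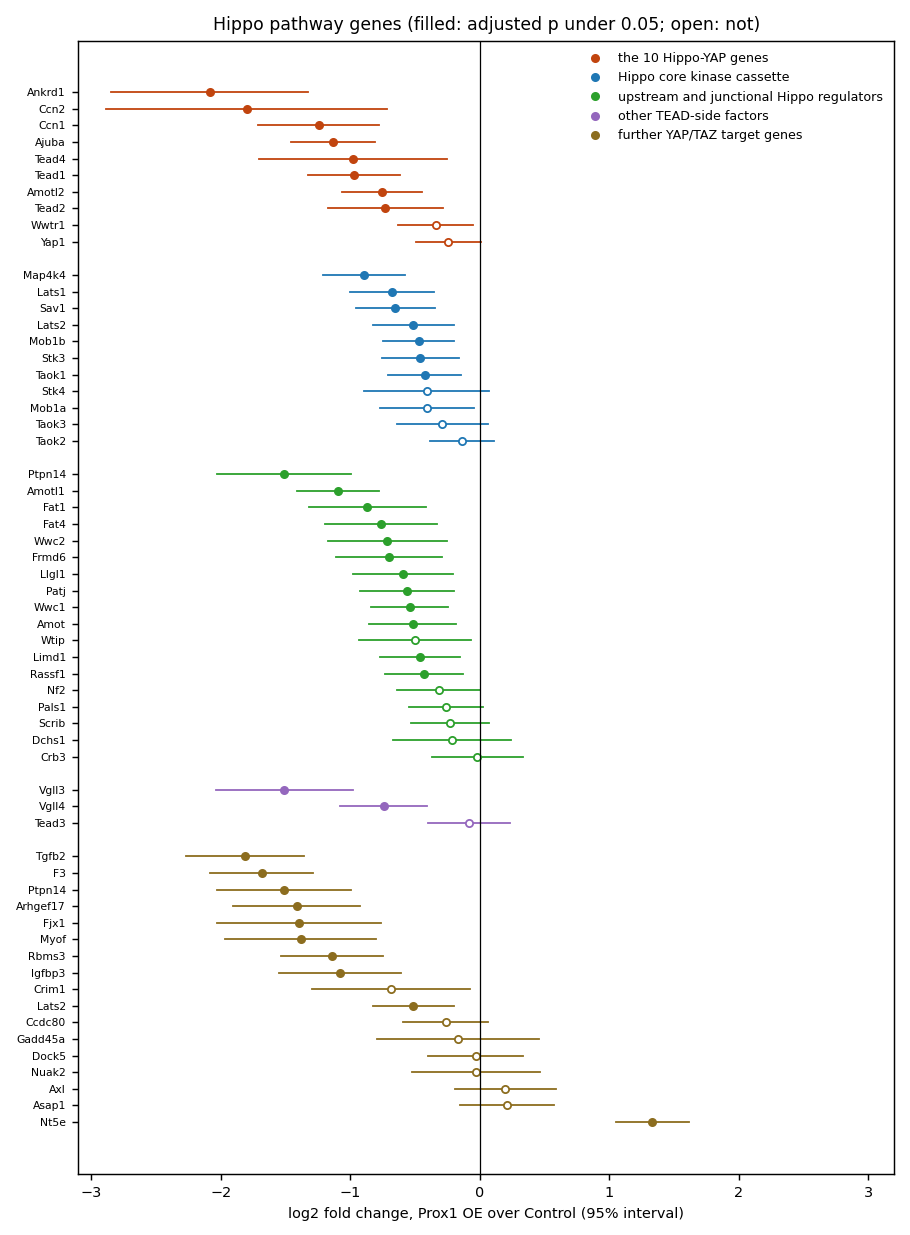
Log2 fold changes of Prox1 OE over Control (x axis, points, with 95% intervals from limma) for the 10 Hippo-YAP genes and 4 further pathway lists (y axis), filled where the adjusted p was under 0.05. Of the 10 genes, 8 were lower and 0 higher, and Nt5e was the only gene of the further lists that rose.

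Markers of cell types moved between the same groups. Of all genes tested, 16.2% fell and 17.1% rose, as above. Per the labels the sequenced cells were transformed hepatocytes. All 8 hepatocyte markers rose in Prox1 OE (summed level 653269 to 1082080 normalised counts in Control, 2168930 to 3432470 in Prox1 OE), while 6 of 8 cholangiocyte markers fell (751918 to 821273, then 522074 to 705577). Most of the cholangiocyte sum was Spp1, which did not pass (748380 to 595372 normalised counts, adjusted p = 0.514). Those that fell, named after their values were seen, included Krt19 (9616 to 1799 normalised counts), Krt7 (2385 to 442), Cldn4 (205 to 29.2), Sox9 and Epcam, with log2 fold changes of -2.98 to -1.07 for these genes. Ccn1, Ccn2 and Ankrd1 are known to be expressed by contractile cells too. Among mesenchymal markers, 4 of 5 smooth muscle genes fell (16197 to 23162, then 7519 to 11755). Of 10 stellate cell and fibroblast genes, 3 fell and 2 rose (114163 to 122880, then 68295 to 78768), with a median log2 fold change of -0.16 over the list. Named after their values were seen, the 3 that fell were the collagen genes Col1a1, Col1a2 and Col3a1 and the 2 that rose were Lrat and Reln, while Dcn, Lum, Pdgfrb, Pdgfra and Des did not pass (-0.32 to 0.27). Mesothelial genes fell in 3 of 4 (153 to 287, then 22.4 to 49.1), and Upk3b was at 0 in Prox1 OE 2, the only marker at 0 in any library.

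Macrophage genes rose in 3 of 6 (18732 to 19335, then 29704 to 37625), endothelial genes in 3 of 7 (8076 to 10285, then 10163 to 14606) and lymphocyte genes in 2 of 5 (687 to 883, then 853 to 1247). The shares of all genes were 16.2% lower and 17.1% higher, as above. Named after their values were seen, the endothelial genes that rose were Tek, Stab2 and Clec4g. Pecam1, Cdh5 and Lyve1 had log2 fold changes of -0.27, -0.33 and -0.53, Kdr had 0.44, and none of them passed. Among proliferation genes 5 of 6 fell (33409 to 48640, then 19411 to 25766). Of 9 immediate-early genes, which respond to handling of tissue and to serum, 1 fell and 1 rose (14769 to 17535, then 12644 to 14747). The smooth muscle, cholangiocyte, mesothelial and proliferation lists thus went the same way as the TEAD genes and targets, and their part in the result was not tested.

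**Figure D5:**
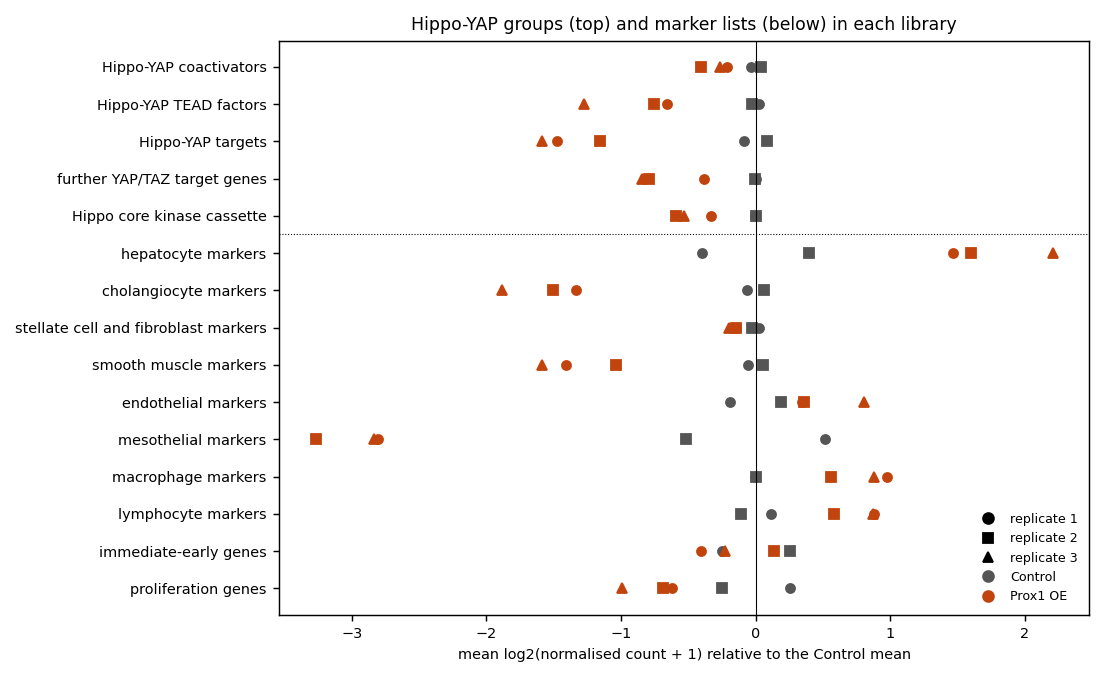
Mean log2(normalised count + 1) of gene groups relative to the Control mean (x axis) in each library, for Hippo-YAP groups (upper 5 lines) and marker lists (lower 10 lines), with color for the group and shape for the replicate number. The targets stood at -1.47, -1.15 and -1.59 in Prox1 OE 1, 2 and 3 and the smooth muscle markers at -1.41, -1.04 and -1.59, while the hepatocyte markers stood at 1.47, 1.60 and 2.21.

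Leaving out 1 library at a time kept the direction of all 10 genes. Ccn1, Ankrd1 and Ajuba passed in each of these 5 fits (limma). Of the 10 genes, 3 were called lower without Control 1, where 2.79% of all genes were, 5 without Control 2 (4.88% of all genes), 9 without Prox1 OE 1 (21.9%), and 7 each without Prox1 OE 2 (10.2%) or Prox1 OE 3 (11.3%). Ccn2 did not pass without Control 1 (adjusted p = 0.0726) or without Control 2 (0.137), and the same held for Tead2 (0.135 and 0.129) and Tead4 (0.244 and 0.174). Tead4 also missed the threshold without Prox1 OE 2 (0.0893) or Prox1 OE 3 (0.0837). Tead1 and Amotl2 did not pass without Control 1 (0.0538 and 0.0807). With 1 Control left, that library is assumed to vary like the Prox1 OE libraries.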

How the data were processed

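The authors made strand-preserving dUTP libraries, sequenced as pairs of 100 base reads, and mapped them to mm10. The counting tool is not given in the sources used here. In the deposited table each value is a signal, the count of a gene divided by the DESeq2 size factor of its library. Whole reads were recovered for 100% of values (tolerance 0.01). A deposited table of the authors' own comparison (mean, shrunken log2 fold change, p-values) was not used. Values were tested with limma 3.58.1 (lmFit, eBayes with trend) in R 4.3.3 on log2(normalised count + 1), which understates changes of low genes, for 17105 genes with a mean of at least 10, two-sided, with Benjamini-Hochberg adjustment at 0.05. Prox1 OE (3 libraries) was compared with Control (2 libraries) without covariates. Alternatives included edgeR 4.0.16 and DESeq2 1.42.0 on recovered reads. Levels per kb used exon unions of GENCODE M21, which matched 99.5% of identifiers. Chi-square statistics between replicates were 39.6 to 126 times their degrees of freedom, so none was the same library deposited again.

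The members and lists were chosen with earlier results of these data known. Named genes were all 10 members, up to 4 genes in each direction from each further list (largest change with an adjusted p under 0.05 and a mean of at least 100), Tead3 and Prox1. Outside this rule, Akt1, Notch1, Foxf2, genes that overlap members and single marker genes were named too. Promoters came from RefSeq (GRCm38.p6). Depth was 48740863 to 56629477 reads per library, and totals cover counting error only.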

Additional observations from a re-analysis of the deposited data

How the results depend on the processing

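Among 18 alternatives, all but the scale relative to Akt1 and Notch1 kept the direction of the Hippo-YAP genes fitted (Yap1 and Wwtr1 were not fitted relative to themselves). On that scale 1 of them passed as lower and 2 as higher (Yap1 0.88, Wwtr1 0.78). Log2 fold changes turned in sign for Tead1 (0.15), Tead2 (0.39), Tead4 (0.14), Amotl2 (0.36), Sav1 (0.47), Lats1 (0.44), Lats2 (0.61), Map4k4 (0.23), Fat1 (0.25), Fat4 (0.36), Amotl1 (0.026) and Vgll4 (0.38), and no longer passed for Ccn1 (-0.12), Ccn2 (-0.68), Ajuba (-0.014), Ptpn14 (-0.39), Vgll3 (-0.39) and Arhgef17 (-0.29). Genes lower and higher there were 0 and 8 of the core kinases, 0 and 12 of the upstream regulators, 0 and 1 of the other genes at TEAD proteins, and 2 and 8 of the further targets, against 1.36% and 74.6% of all genes. This scale subtracts the fall of Akt1 and Notch1 from every gene. With total counts as library size (median of all genes -0.45), Yap1 (-0.68) and Wwtr1 (-0.77) passed and 11 core kinases were lower, as were 6855 of all 17132 genes tested. Relative to Yap1 and Wwtr1, a scale added after seeing the data, Tead2 (-0.44) and Tead4 (-0.69) did not pass.

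Without the limma trend, 5 of the 10 genes, 4 core kinases and 5 upstream regulators were lower, as were 1929 of all 17105 genes tested (2769 with the trend), and Tead2 (-0.73), Tead4 (-0.98) and Ccn2 (-1.80) did not pass. Without a filter, 7 upstream regulators were lower, as were 2282 of 28705 genes, and Tead4 (-0.98, adjusted p = 0.084) did not pass. Tead4 also missed with TMM factors (-0.96), upper-quartile factors (-0.90) and edgeR (-0.94). The cause of these changes was not tested.

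Replicate numbers are not tied to an animal or day, and deviations of same-numbered libraries correlated at 0.14 and 0.02. With the replicate block, which leaves out Prox1 OE 3, 7 of the 10 genes were lower, Tead4 did not pass (-0.73, adjusted p = 0.066), and 2570 of all 17105 genes were lower.

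Leaving out 1 library at a time, 3 to 9 of the 10 genes were lower, as were 0 to 10 core kinases, 2 to 13 upstream regulators, 1 to 2 other genes at TEAD proteins and 5 to 10 further targets. Log2 fold changes ran from -0.27 to -0.20 (Yap1), -0.41 to -0.27 (Wwtr1), -1.08 to -0.85 (Tead1), -0.85 to -0.54 (Tead2), -1.16 to -0.73 (Tead4), -1.43 to -1.08 (Ccn1), -2.17 to -1.31 (Ccn2), -0.85 to -0.68 (Amotl2), -2.39 to -1.76 (Ankrd1) and -1.21 to -1.03 (Ajuba). Differences in Tead shares ran from -5.90 to -3.97 (Tead1), -2.19 to 1.32 (Tead2), 4.49 to 6.83 (Tead3) and -0.93 to -0.43 percentage points (Tead4), and the log2 ratio of Wwtr1 to Yap1 from -0.14 to -0.07. With 2 Controls, a fit without 1 of them rests on a single Control library.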
